A study of Mus musculus with 50 samples.

Results

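The genes described here are those of fibroblasts and of the extracellular matrix that they lay down in the mouse colon. A list of 37 such genes was written by name, and 35 of them had a probe set in the table that pairs probe sets with genes, out of 19494 genes measured. Fbn1 and Pdgfra are not analysed here. No listed gene had more than 1 probe set. The genes were chosen by what they encode, with earlier results of these data known, and were sorted into 7 roles: small leucine-rich proteoglycans, fibrillar collagens, network and filament collagens, matrix glycoproteins, matricellular proteins, cross-linking enzymes and fibroblast surface proteins.

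Fibroblasts of the gut wall secrete collagens that assemble into fibrils, and small leucine-rich proteoglycans such as lumican and decorin bind those fibrils and set their width and spacing. Glycoproteins such as fibronectin and the fibulins link the fibrils to cells and to elastic fibres, matricellular proteins such as periostin modulate how cells attach, and lysyl oxidases cross-link the finished fibrils. In the colon these cells lie in the lamina propria around the crypts, in the submucosa and between muscle layers, and smooth muscle cells also make some matrix.

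The study deposited arrays of whole colon from mice aged 10 to 12 weeks, kept under specific pathogen-free conditions on chow, with intestinal epithelial deletions (IEC-KO) of FADD or CASP8. FADD couples death receptors to caspase-8, a protease that triggers apoptosis and restrains necroptosis. The 50 arrays fell into 8 genotypes and, because the titles are numbered 1 to 30 and 86 to 124, into 10 groups of 5 arrays. What the number series stand for is not stated, and beyond the title number nothing says whether arrays are separate animals, so p-values measure only the spread between these samples.

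The first series held Fadd fl/fl (floxed, not deleted), FADD IEC-KO without and with a further Zbp1 -/- or Mlkl -/- genotype (FADD IEC-KO Zbp1 -/- and, in the other group, FADD IEC-KO Mlkl -/-), CASP8 IEC-KO and CASP8 IEC-KO Mlkl -/-. The second held Casp8 fl/fl, CASP8 IEC-KO, FADD IEC-KO and its co-deletion FADD IEC-KO RIPK3 IEC-KO. The FADD and CASP8 deletions and that of RIPK3 were restricted to the intestinal epithelium, whereas the Zbp1 and Mlkl alleles were not labelled as restricted to a cell type. No source used here names the Cre driver. Each series had floxed mice of 1 gene, so FADD IEC-KO of the second series was set against Casp8 fl/fl and CASP8 IEC-KO of the first against Fadd fl/fl. Values are log2 signals, differences are in log2 units, and n = 5 arrays a group throughout.

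Fadd and Casp8 were lower where the labels give their deletion. Fadd stood at 7.38 ± 0.18 (SD) in the floxed group Fadd fl/fl and 7.30 ± 0.13 in its counterpart Casp8 fl/fl, and at 6.39 ± 0.12 and 6.14 ± 0.20 in FADD IEC-KO of the first and second series. Casp8 was at 10.32 ± 0.22 and 10.50 ± 0.15 in the floxed groups and at 9.14 ± 0.14 and 8.98 ± 0.32 in CASP8 IEC-KO. Mlkl was at 7.17 ± 0.12 and 7.31 ± 0.18 in its co-deletions with FADD and CASP8, below 8.25 ± 0.20 in Fadd fl/fl. Zbp1 in its co-deletion (5.49 ± 0.50) and Ripk3 in its own (6.68 ± 0.13) were below the FADD IEC-KO level of the same series but overlapped with the floxed groups, at 5.68 ± 0.19 and 6.60 ± 0.19, so these signals do not check those labels against an undeleted level. The fibroblast markers Col1a1, Col1a2, Col3a1, Dcn, Lum and Dpt were all measured, with group means of Dcn between 10.71 and 11.41. In whole tissue fewer cells of a type and less RNA per cell cannot be told apart, and a level of one probe set cannot be set against that of another.

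Promoter sequence was read from RefSeq (assembly GRCm38.p6) for genes that fell in FADD IEC-KO against Fadd fl/fl in the first series. It was also read for collagens that did not pass in that comparison. Of the 37 listed genes 24 were in the promoter table. Each window below runs from 120 bases before to 30 after the annotated start, 5′ to 3′ on the strand of the gene. Capitals mark matches, on either strand, to the TATA box TATAAA, the NF-Y box CCAAT, the SMAD element CAGAC, the AP-1 site TGANTCA, the TEAD element GGAATG or the CArG box, and no matches overlapped one another in these windows. Dpt (chr1:164796543-164796692, plus strand), C1qtnf3 (chr15:10952212-10952361, plus strand), Aspn (chr13:49544323-49544472, plus strand) and Ogn (chr13:49607895-49608044, plus strand) are shown because they were among the genes with the largest falls.
Dpt: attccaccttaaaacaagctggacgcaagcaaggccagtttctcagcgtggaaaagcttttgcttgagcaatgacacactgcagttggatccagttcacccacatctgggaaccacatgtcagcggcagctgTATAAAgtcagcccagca
C1qtnf3: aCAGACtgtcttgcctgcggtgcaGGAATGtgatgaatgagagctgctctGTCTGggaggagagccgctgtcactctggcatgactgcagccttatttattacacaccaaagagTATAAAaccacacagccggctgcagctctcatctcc
Aspn: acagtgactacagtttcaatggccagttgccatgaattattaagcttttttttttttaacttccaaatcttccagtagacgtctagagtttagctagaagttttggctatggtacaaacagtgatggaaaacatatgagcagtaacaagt
Ogn: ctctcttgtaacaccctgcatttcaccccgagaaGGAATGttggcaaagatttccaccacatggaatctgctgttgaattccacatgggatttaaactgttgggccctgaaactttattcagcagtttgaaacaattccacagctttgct

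The promoters of 4 collagen genes are shown for contrast, since none of these genes passed the test in that comparison of the first series. They are Col1a2 (chr6:4505498-4505647, plus strand), Col3a1 (chr1:45311418-45311567, plus strand), Col4a1 (chr8:11312797-11312946, minus strand) and Col4a2 (chr8:11312685-11312834, plus strand). The contrast holds for the first series alone, since Col3a1 did fall in FADD IEC-KO of the second, where C1qtnf3 and Ogn did not pass. Within the first series it also leans on FADD IEC-KO replicates 22 and 23, without which Aspn and Ogn did not pass. In replicates 21, 24 and 25 Col1a2 read 8.60, 8.67 and 8.63, against 9.00 to 9.37 in Fadd fl/fl. Col4a1 and Col4a2 are read in opposite directions from a shared stretch, and their windows overlap by 38 bases.
Col1a2: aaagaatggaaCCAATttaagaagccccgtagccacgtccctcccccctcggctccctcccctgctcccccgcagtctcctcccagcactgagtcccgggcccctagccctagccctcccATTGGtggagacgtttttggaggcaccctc
Col3a1: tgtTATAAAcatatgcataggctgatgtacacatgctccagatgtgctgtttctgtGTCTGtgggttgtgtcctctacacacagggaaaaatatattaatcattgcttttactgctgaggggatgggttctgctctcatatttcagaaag
Col4a1: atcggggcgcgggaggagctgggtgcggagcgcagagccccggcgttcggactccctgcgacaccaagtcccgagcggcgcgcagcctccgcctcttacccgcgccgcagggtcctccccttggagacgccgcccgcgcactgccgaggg
Col4a2: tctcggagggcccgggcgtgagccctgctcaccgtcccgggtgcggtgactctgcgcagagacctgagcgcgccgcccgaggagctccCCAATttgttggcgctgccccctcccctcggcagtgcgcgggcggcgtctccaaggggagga

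No motif was found in all 4 of the promoters shown for genes that fell. Over the 24 promoters of listed genes, 3 held the TATA box, 3 the NF-Y box, 8 the SMAD element, 1 the AP-1 site, 2 the TEAD element and 0 the CArG box. Of 27025 promoters of the same length, 7.55% held the TATA box, 24.7% the NF-Y box, 28.7% the SMAD element, 4.14% the AP-1 site, 7.25% the TEAD element and 0.851% the CArG box. Such matches are short words in a window and are given as a description. In gene order, 5 pairs of listed genes lay within 2 genes of each other: Col3a1 and Col5a2, Dcn and Lum, Aspn and Ogn, Col6a2 and Col6a1, and Col4a1 and Col4a2.

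The first comparison asked how matrix genes differed between FADD IEC-KO and Fadd fl/fl in the first series. Proteoglycans and glycoproteins fell. None of the fibrillar collagens passed, with FADD IEC-KO arrays on both sides of the floxed range of their mean. Of the 35 genes 17 fell and 1 rose (limma, Benjamini-Hochberg adjusted p under 0.05), against 10.1% of all genes that fell and 8.59% that rose. At an unadjusted p under 0.05 the counts were 21 lower and 3 higher, where all genes gave 16.8% and 14.1%. The median over the 35 was -0.38, with a range from -1.55 to 1.05, and over all genes it was -0.02. For 12 of the 35 every FADD IEC-KO array lay below every floxed array, which held for 4.97% of all genes. The heatmap of differences shows the 35 genes by role in every knockout group.

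**Figure D1:**
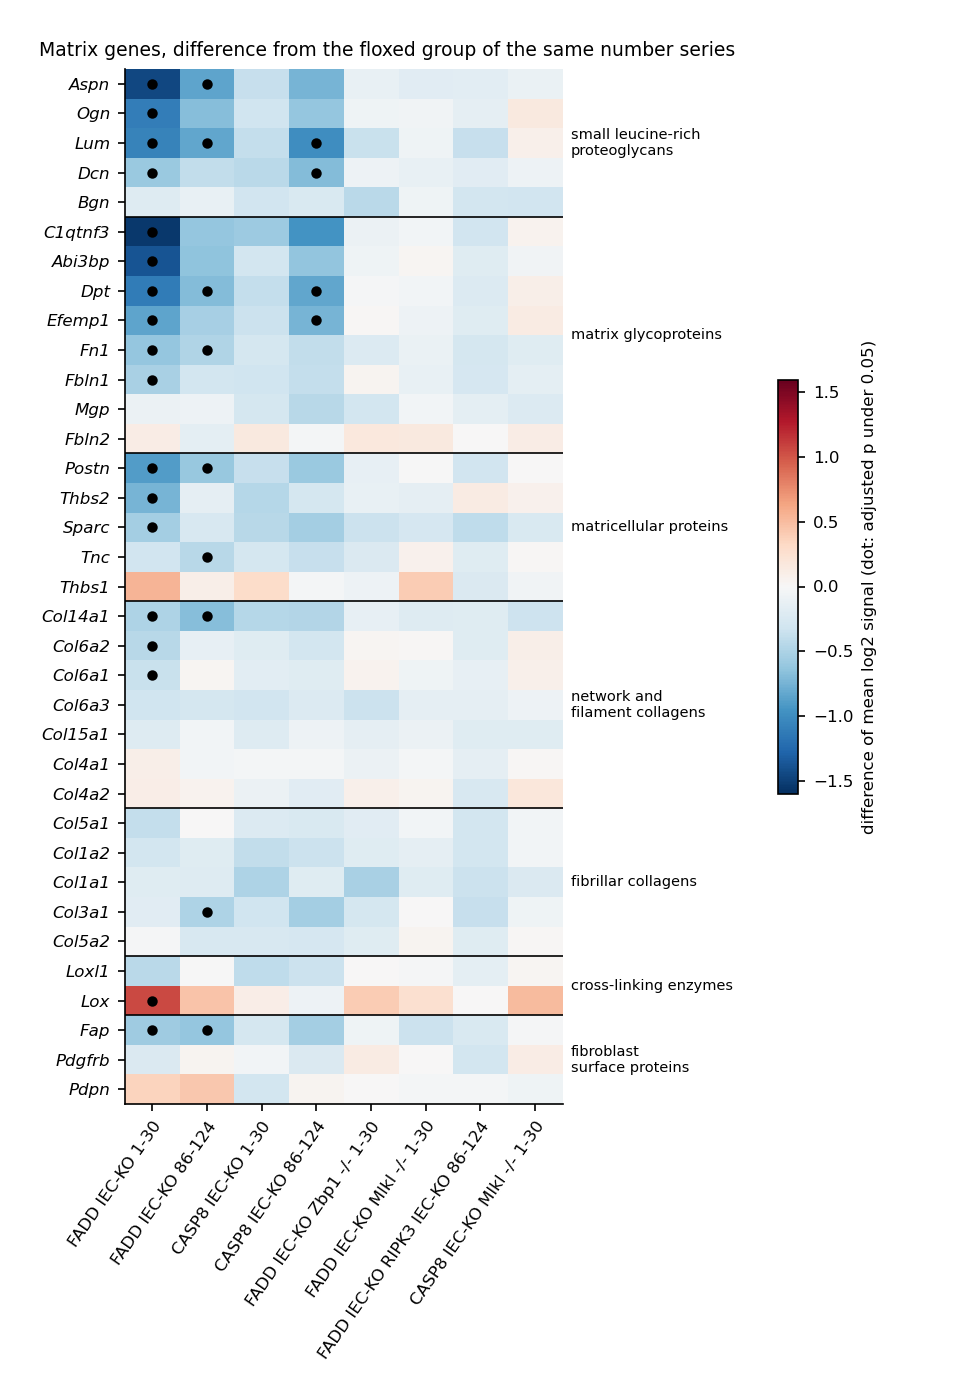
Heatmap of the log2 difference of 35 fibroblast and matrix genes (rows, grouped by role) between each of 8 knockout groups (columns) and the floxed group of the same series, n = 5 against 5 arrays; dots mark limma adjusted p under 0.05. In the column of FADD IEC-KO of the first series 17 genes fell and 1 rose, among them 4 of 5 proteoglycans and 6 of 8 glycoproteins lower, and its fibrillar collagen rows hold no dot.

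Among the small leucine-rich proteoglycans 4 of 5 fell (median of the 5, -1.07). Aspn encodes asporin, a collagen binder that also binds TGF-beta. It read 8.81, 9.16, 9.17, 8.74 and 8.87 in Fadd fl/fl and 8.48, 6.55, 6.79, 8.41 and 7.20 in FADD IEC-KO, in order of the title numbers. The groups did not overlap, and replicates 22 and 23 were lowest. The difference was -1.46 (SE 0.28, 95% interval -2.03 to -0.90, limma adjusted p = 0.00036). Lum, lumican, read 8.38, 8.19, 8.41, 8.26 and 8.88 in the floxed arrays against 7.65, 7.26, 7.51, 7.54 and 6.79. All 5 knockout arrays lay below the floxed ones, with a fall of -1.07 (SE 0.23, limma adjusted p = 0.00099). Ogn, osteoglycin, ran from 10.64 to 11.07 in Fadd fl/fl and from 9.00 to 10.57 in FADD IEC-KO, again without overlap (-1.11, SE 0.23, limma adjusted p = 0.000826). Dcn, decorin, fell less, by 0.60 (SE 0.17, limma adjusted p = 0.00887), also without overlap. Bgn, biglycan, stood at -0.21 ± 0.13 (SE, limma adjusted p = 0.295).

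Of the 8 genes sorted as matrix glycoproteins 6 fell (median -0.73). C1qtnf3, a secreted protein with a collagen-like stretch that was placed in this broad role, had the largest fall of the 35. It read 6.41, 6.76, 6.98, 6.91 and 7.21 in Fadd fl/fl and 6.09, 4.99, 5.26, 4.96 and 5.21 in FADD IEC-KO. Replicate 21 stood above the other 4 knockout arrays but below every floxed one, and the difference was -1.55 (SE 0.31, 95% interval -2.17 to -0.94, limma adjusted p = 0.000459). Dpt, dermatopontin, which binds decorin and promotes fibril formation, read 10.26, 10.35, 10.39, 10.20 and 10.59 against 9.86, 9.09, 8.95, 9.36 and 8.92. The fall was -1.12 (SE 0.20, 95% interval -1.54 to -0.71, limma adjusted p = 0.000251). Abi3bp, a matrix protein that binds cells, read 9.62, 9.85, 9.50, 9.53 and 10.06 against 9.16, 7.52, 7.77, 8.78 and 8.46, again without overlap, with a fall of -1.38 (SE 0.25, limma adjusted p = 0.000251). Efemp1, fibulin-3, ran from 9.15 to 9.82 in the floxed group and from 8.26 to 9.04 in the knockout (-0.85, SE 0.20, limma adjusted p = 0.00244). Fn1, fibronectin, fell by 0.62 (SE 0.14, limma adjusted p = 0.00161) and Fbln1 by 0.52 (SE 0.19, limma adjusted p = 0.0442).

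Among 5 matricellular proteins 3 fell. Postn, periostin, read 10.91, 11.15, 11.07, 10.89 and 11.21 in Fadd fl/fl and 10.61, 9.68, 9.89, 10.76 and 9.81 in FADD IEC-KO. Replicates 21 and 24 came close to the floxed arrays without reaching them, and the fall was -0.89 (SE 0.20, limma adjusted p = 0.00166). Thbs2, thrombospondin 2, fell by 0.75 (SE 0.19, limma adjusted p = 0.00418) and Sparc, a collagen-binding protein, by 0.54 (SE 0.17, limma adjusted p = 0.0242). Thbs1 stood at 0.54, above 0, and did not pass. The plot of 8 genes by array shows these values in all 10 groups.

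**Figure D2:**
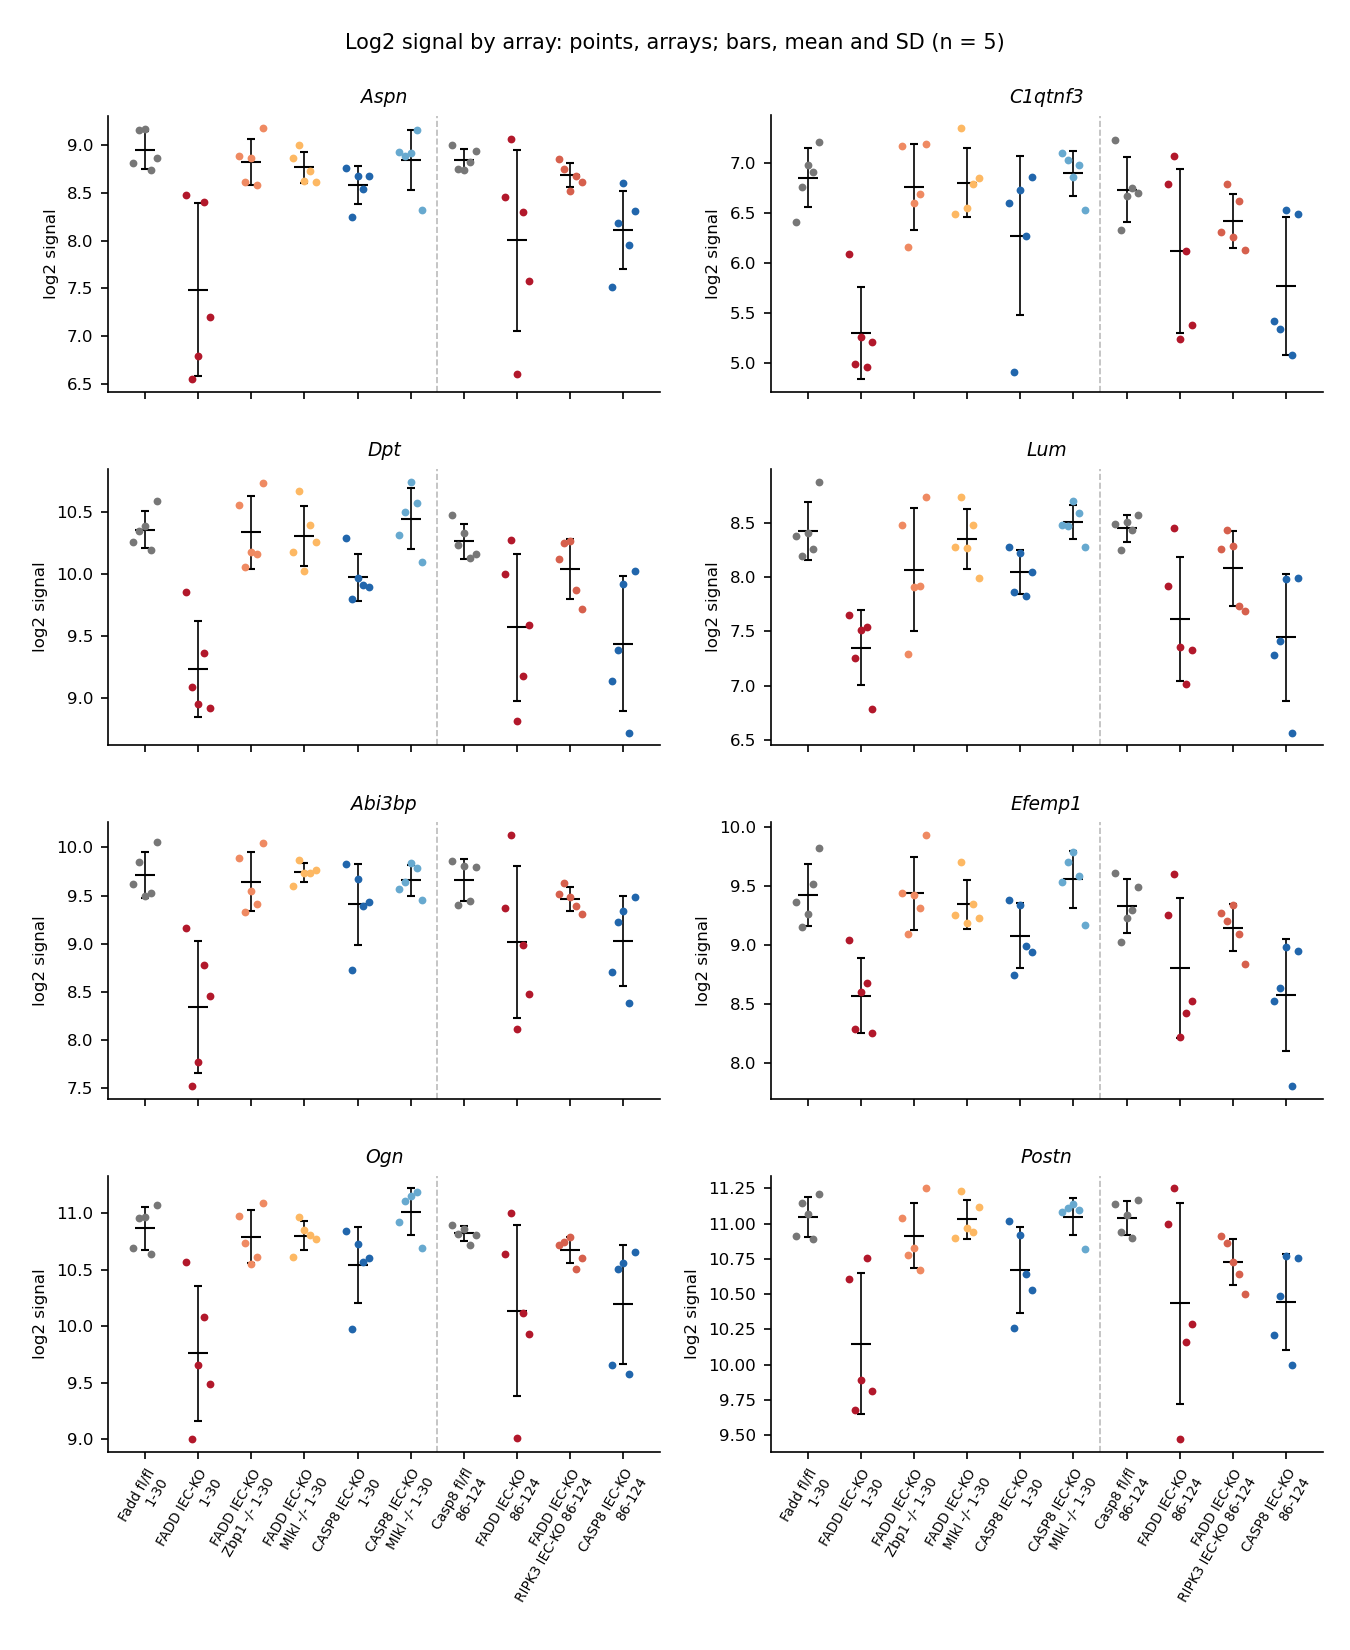
Log2 signal of Aspn, C1qtnf3, Dpt, Lum, Abi3bp, Efemp1, Ogn and Postn on every array (points) in the 10 groups, with the mean and SD (n = 5). In FADD IEC-KO of the first series every array lies below every Fadd fl/fl array for these 8 genes. Group means of the co-deletions with Zbp1 or Mlkl lie nearer to the floxed level than to FADD IEC-KO. Single arrays can lie lower: Lum runs from 7.29 to 8.74 in FADD IEC-KO Zbp1 -/- and from 8.19 to 8.88 in Fadd fl/fl.

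Collagens moved less. Of 7 network and filament collagens 3 fell, Col6a1 at -0.36 and Col6a2 at -0.44, which build beaded filaments, and Col14a1 at -0.50 (SE 0.15, limma adjusted p = 0.0132), a collagen that decorates fibrils. Of the 5 fibrillar collagens none passed, and their differences ran from -0.38 to -0.02. Their mean was 8.76 and 8.57 in replicates 22 and 23 and 7.79 to 8.07 in the other 3, against 8.30 to 8.59 in Fadd fl/fl. Col1a1, a chain of type I collagen, read 9.00, 9.19, 9.30, 9.09 and 9.23 in Fadd fl/fl and 8.53, 9.72, 9.31, 8.60 and 8.67 in FADD IEC-KO. Replicates 22 and 23 were above all floxed arrays and the other 3 below them. Col3a1 read 10.89 and 10.61 in replicates 22 and 23 and 9.80 to 10.09 in the other 3, against 10.33 to 10.64 in Fadd fl/fl, so replicate 22 lay above the floxed arrays, 23 within their range and the other 3 below it. Group means of the basement membrane genes Col4a1 and Col4a2 ran from 7.35 to 7.61 and from 7.83 to 8.28 over all 10 groups.

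Lox was the gene that rose. It encodes lysyl oxidase, the enzyme that starts the cross-linking of collagen and elastin. Its signal was 5.69, 5.48, 5.87, 5.38 and 5.95 in Fadd fl/fl and 5.89, 8.06, 7.74, 6.44 and 5.51 in FADD IEC-KO. Replicates 22 and 23 were high and replicates 21 and 25 within the floxed range. The difference was 1.05 (SE 0.30, 95% interval 0.45 to 1.66, limma adjusted p = 0.0109). Without replicate 22 it was 0.72 (limma adjusted p = 0.0953), without replicate 23 0.80 (limma adjusted p = 0.0699) and without both 0.27 (limma adjusted p = 0.647). Among surface proteins Fap, a protease of activated fibroblasts, fell by 0.57 (SE 0.20, limma adjusted p = 0.0361), and Pdpn, podoplanin, stood at 0.35 and did not pass.

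**Figure D3:**
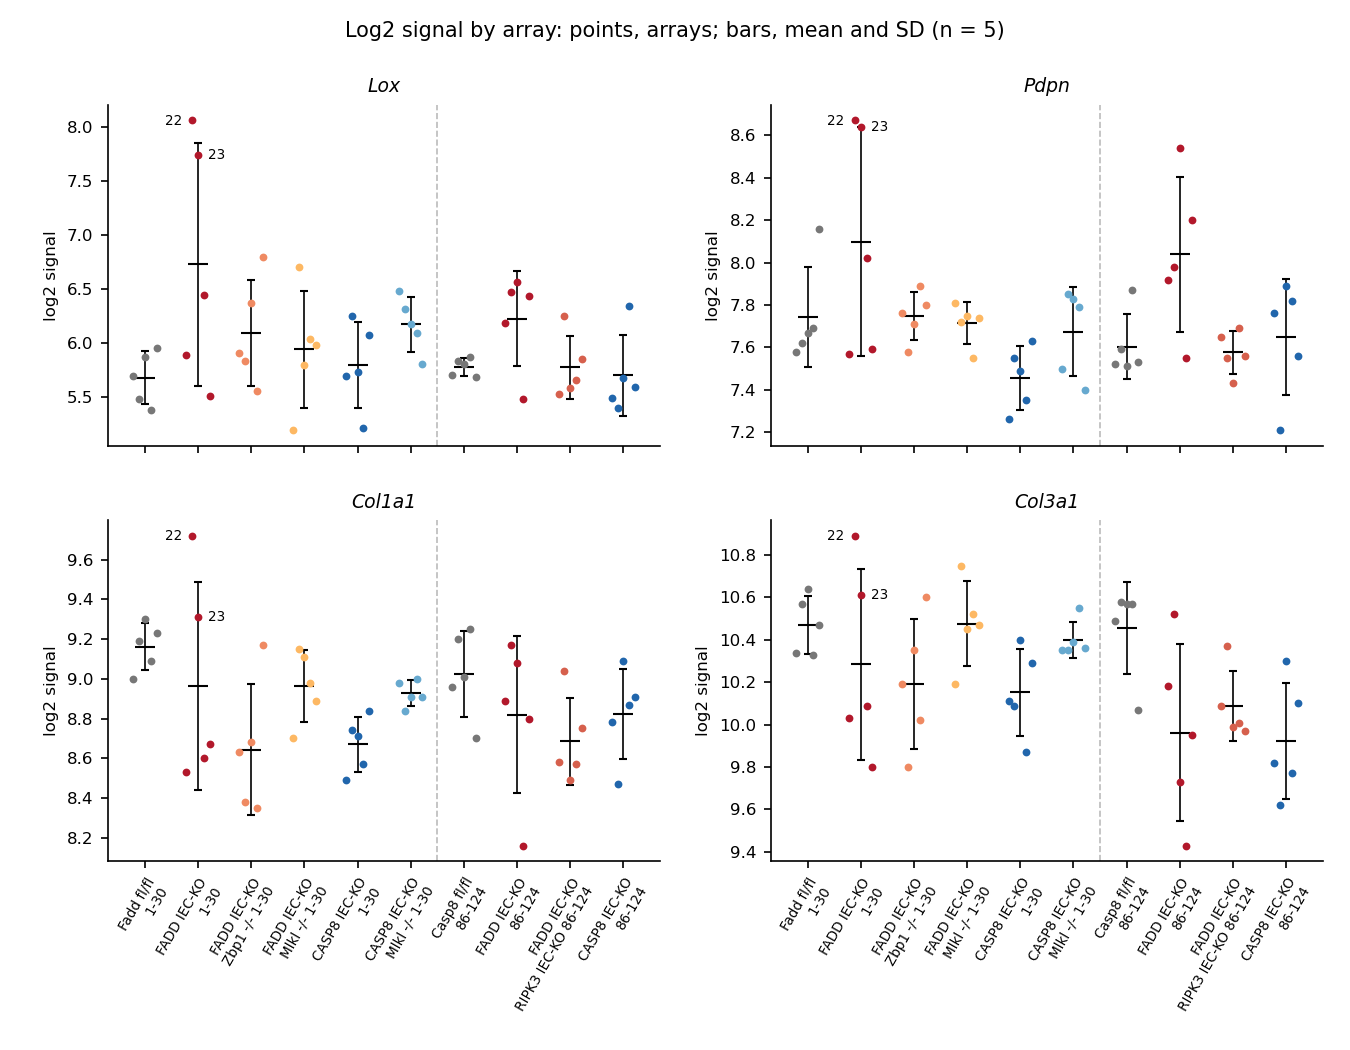
Log2 signal of Lox, Pdpn, Col1a1 and Col3a1 on every array (points) in the 10 groups, with the mean and SD (n = 5); FADD IEC-KO replicates 22 and 23 are labelled. For each of the 4 genes these replicates lie above the other 3 arrays of their group, with Lox at 8.06 and 7.74.

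Replicates 22 and 23 stood apart in the same direction for many of the genes. Both were above the other 3 FADD IEC-KO arrays for 16 of the 35 genes, among them all 5 fibrillar collagens, Lox, Loxl1, Pdpn and Pdgfrb. Both were below for 3 genes, Aspn, Abi3bp and Fap. The share of all genes that split this way was not counted, so these counts show nothing particular to the 35. Without both arrays 13 of the 35 genes passed, all of them lower, where 1.78% of all genes passed as lower and 1.72% as higher. Dpt (-0.98, limma adjusted p = 0.0205), Abi3bp (-0.91, adjusted p = 0.0408), C1qtnf3 (-1.43, adjusted p = 0.022), Lum (-1.10, adjusted p = 0.0211) and Fn1 (-0.66, adjusted p = 0.0216) still passed. Aspn (-0.92, adjusted p = 0.0593), Ogn (-0.82, adjusted p = 0.0593) and Postn (-0.65, adjusted p = 0.0913) did not.

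Markers of other cells moved with this comparison. All 9 smooth muscle genes fell (median -0.97), with Synpo2 at -1.37 ± 0.24 (SE), Myh11 at -1.24 ± 0.23 and Cnn1 at -1.16 ± 0.22. The mean of that list ran from 10.80 to 10.99 over Fadd fl/fl arrays and was 10.71, 9.48, 9.32, 10.44 and 9.55 over FADD IEC-KO arrays, lowest in replicates 22, 23 and 25. All 4 neutrophil genes rose (median 1.95), and their mean was 4.43 to 4.66 in the floxed arrays and 4.93 to 9.54 in the knockout, highest in replicates 22 and 23 at 9.54 and 7.91. All 3 macrophage genes rose, from a list mean of 6.88 to 7.43 to one of 7.30 to 8.13. None of the adipocyte or mesothelium genes passed. The part of these cells in the falls was not tested.

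In the second series FADD IEC-KO was set against Casp8 fl/fl. Fewer genes passed, and proteoglycans, glycoproteins and Col14a1 were again among those that fell. Of the 35 genes 9 fell and none rose (limma, Benjamini-Hochberg), against 4.25% of all genes that fell and 6.8% that rose. Unadjusted p-values were under 0.05 for 15 lower and 1 higher gene, against 12.5% and 13.6% of all genes. The median over the 35 was -0.26 against -0.03 over all genes, and for none of the 35 did the groups of arrays stand clear of each other. Such a gap was seen for 2.48% of all genes with the knockout lower and 4.51% with it higher.

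Col14a1 had the smallest adjusted p. It read 6.05, 6.07, 6.10, 5.95 and 6.18 in Casp8 fl/fl and 5.56, 5.97, 5.26, 5.08 and 5.07 in FADD IEC-KO, where only replicate 95 reached the floxed range. The fall was -0.68 (SE 0.15, 95% interval -0.98 to -0.38, limma adjusted p = 0.00174). Lum read 8.49, 8.25, 8.51, 8.43 and 8.57 against 7.92, 8.45, 7.36, 7.02 and 7.33 (-0.83, SE 0.23, limma adjusted p = 0.0135). Dpt read 10.48, 10.24, 10.33, 10.13 and 10.16 against 10.00, 10.28, 8.81, 9.18 and 9.59 (-0.70, SE 0.20, limma adjusted p = 0.0209). Aspn read 9.00, 8.75, 8.74, 8.82 and 8.94 against 8.46, 9.07, 6.60, 8.30 and 7.58 (-0.85, SE 0.28, limma adjusted p = 0.0421). For these 4 genes replicate 95 lay at the floxed level. Replicate 117 was the lowest array for Dpt and Aspn.

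Another 5 genes fell: Fn1 by 0.48 (limma adjusted p = 0.0194), Fap by 0.62 (adjusted p = 0.0322), Postn by 0.61 (adjusted p = 0.0425), Col3a1 by 0.49 (adjusted p = 0.043) and Tnc, tenascin C, by 0.45 (adjusted p = 0.0443). Ogn at -0.68 ± 0.23 (SE, adjusted p = 0.0505), Efemp1 at -0.53 (adjusted p = 0.0789), Abi3bp at -0.65 (adjusted p = 0.0854) and Dcn at -0.39 (adjusted p = 0.115) did not pass. By role, 2 of 5 proteoglycans, 2 of 8 glycoproteins, 2 of 5 matricellular proteins, 1 of 5 fibrillar collagens, 1 of 7 network and filament collagens and 1 of 3 surface proteins fell. Lox was at 0.45 and Pdpn at 0.43 ± 0.16 (SE, adjusted p = 0.0694), neither past the threshold.

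The count of 9 rested on single arrays. It was 2 without FADD IEC-KO replicate 117, 4 without 120 or 124 and 13 without 95, and it was 3 without Casp8 fl/fl replicate 86, 4 without 91 or 98 and 5 without 105. Col14a1 passed in each of these fits. Lum was lost without replicate 120 (-0.69, limma adjusted p = 0.0558), and Fn1 without 117 or 91 (adjusted p 0.0502 to 0.147). Dpt was lost without 117, 120 or 86 (0.0515 to 0.12), Aspn without any of 7 arrays (0.054 to 0.256), Fap without any of 6 (0.0523 to 0.118), Postn without any of 8 (0.0507 to 0.25) and Col3a1 without any of 7 (0.0711 to 0.16). The main fit draws 1 estimate of spread per gene from all 10 groups, whereas the SD of Aspn was 0.95 in FADD IEC-KO and 0.11 in Casp8 fl/fl. Fitted on the compared arrays alone, 1 gene passed. The smooth muscle list moved here too, with 3 of 9 genes lower (median -0.56). Its mean was 10.70 to 10.95 in Casp8 fl/fl and 10.80, 10.92, 9.10, 10.58 and 10.17 in FADD IEC-KO, lowest in replicate 117. The neutrophil mean was 4.55 to 4.85 against 4.61 to 8.66, highest in replicate 117, and 2 of 3 macrophage genes rose. Their part in the result was not tested.

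The FADD IEC-KO comparisons of both series share no arrays. No gene of the 35 passed the test of the difference between them (limma interaction, against 0.0975% of all genes higher and 0.0256% lower), and at an unadjusted p under 0.05 there were 4 higher and 1 lower (6.44% and 4.23% of all genes). The median difference between the series was 0.18. The widest gaps were C1qtnf3 at 0.93 (95% interval 0.06 to 1.80, limma adjusted p = 0.417), Abi3bp at 0.73 (interval 0.02 to 1.44, adjusted p = 0.454) and Aspn at 0.62 (interval -0.18 to 1.42, adjusted p = 0.596), each less negative in the second series. These intervals leave room for a large difference as well as for a small one. The floxed control also differed between the series, so series and control genotype cannot be told apart.

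**Figure D4:**
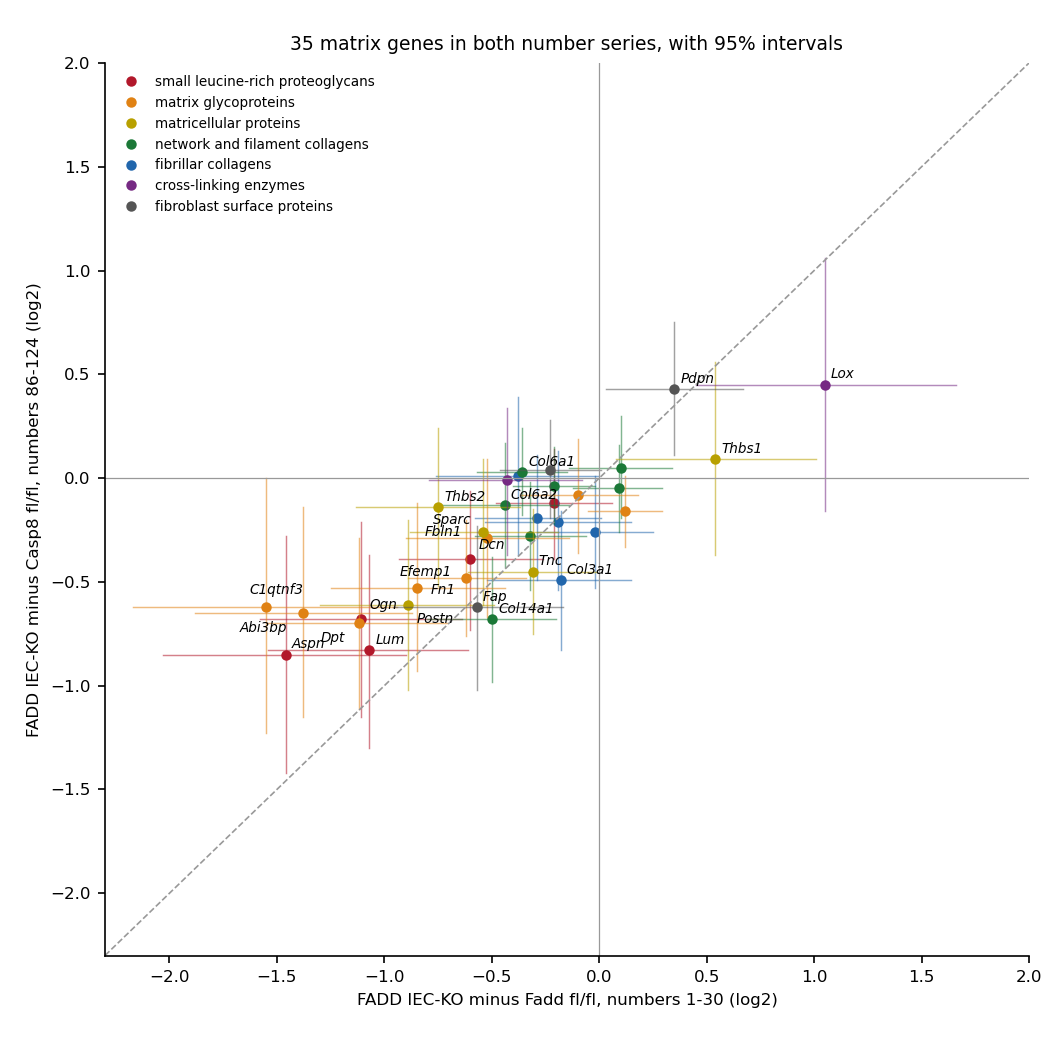
Each point is 1 of the 35 genes, coloured by role, with its log2 difference between FADD IEC-KO and Fadd fl/fl (first series, x axis) and between FADD IEC-KO and Casp8 fl/fl (second series, y axis); bars are 95% intervals of the limma fit, and the dashed line marks equal differences. Aspn lies at -1.46 and -0.85, C1qtnf3 has the most negative value of the first series at -1.55, and Lox lies on the positive side of both axes at 1.05 and 0.45.

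CASP8 IEC-KO was lower than the floxed group for most of the 35 genes in both series, with 4 past the threshold in the second series and none in the first. In the second series against Casp8 fl/fl 4 genes fell and 0 rose (limma, Benjamini-Hochberg), against 0.662% of all genes that fell and 1.8% that rose, and 34 of the 35 had a negative difference, against 52.4% of all genes. With an unadjusted p under 0.05 there were 19 lower and 0 higher, against 8.03% and 10.2%. The median was -0.34 against -0.01 over all genes, and for 9 genes every knockout array lay below every floxed one, against 1.26% of all genes.

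The 4 genes were the proteoglycans Lum and Dcn and the glycoproteins Dpt and Efemp1. Lum read 7.28, 7.41, 7.98, 6.57 and 7.99 in CASP8 IEC-KO, all below the lowest Casp8 fl/fl array at 8.25 (-1.0, SE 0.23, 95% interval -1.47 to -0.54, limma adjusted p = 0.0159). Dcn read 10.32, 10.71, 11.14, 10.14 and 11.24 against 11.26 to 11.58 (-0.69, SE 0.17, limma adjusted p = 0.0221). Dpt read 9.14, 9.39, 9.92, 8.72 and 10.03 against 10.13 to 10.48 (-0.83, SE 0.20, limma adjusted p = 0.0242). Efemp1 read 8.53, 8.64, 8.98, 7.81 and 8.95 against 9.03 to 9.61 (-0.75, SE 0.20, limma adjusted p = 0.0339). Replicate 104 was the lowest for all 4. C1qtnf3 at -0.96 ± 0.31 (SE, limma adjusted p = 0.0739) and Aspn at -0.74 (adjusted p = 0.138) did not pass.

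Without replicate 87 or without replicate 104 none of the 4 passed. Their adjusted p-values were then 0.0836 and 0.102 for Lum, 0.111 and 0.12 for Dcn, 0.11 and 0.13 for Dpt and 0.112 and 0.176 for Efemp1. Dpt also missed without Casp8 fl/fl replicate 91 (adjusted p 0.0502), and Efemp1 without 86, 105 or 119 (from 0.0596 up). The count was 8 without replicate 100 and 0 on the compared arrays alone. Other cell lists moved beside these differences. The endothelial mean was 6.32 to 6.74 in CASP8 IEC-KO against 6.71 to 6.93 in Casp8 fl/fl (median -0.37, 1 of 5 genes lower past the threshold). The colon epithelium mean was 10.50 to 10.84 against 10.25 to 10.57 (median 0.20, 0 of 6 past it), and the smooth muscle mean 10.26 to 10.83 against 10.70 to 10.95 (median -0.32, 0 of 9). None of the 4 neutrophil genes passed, but replicates 87 and 104, without which the calls ended, had the highest neutrophil means at 5.32 and 6.26, against 4.64 to 4.82 in the other 3 and 4.55 to 4.85 in the floxed arrays. Replicate 104 also had the highest macrophage mean at 7.57, against 6.79 to 7.10 in the other 4. Their part in the result was not tested.

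In the first series none of the 35 genes passed between CASP8 IEC-KO and Fadd fl/fl (limma), against 0.0667% of all genes that fell and 0.0564% that rose, and at an unadjusted p under 0.05 there were 11 lower and 0 higher (6.34% and 5.38% of all genes). The median was -0.31 against -0.01 over all genes. The largest differences were C1qtnf3 at -0.58 (SE 0.31, limma adjusted p = 0.455), Col1a1 at -0.49 (SE 0.17, adjusted p = 0.222) and Col14a1 at -0.46 (SE 0.15, adjusted p = 0.192). Col1a1 read 8.49, 8.74, 8.71, 8.57 and 8.84, all below the 9.00 to 9.30 of Fadd fl/fl, and Dcn was the other gene whose arrays did not overlap, against 1.6% of all genes. The difference between the series passed for no gene (limma, against 0% of all genes higher and 0.00513% lower), and at an unadjusted p under 0.05 the counts were 0 higher and 0 lower (4.78% and 3.17% of all genes). Lum had the widest gap at -0.63 (95% interval -1.28 to 0.03, limma adjusted p = 0.648), followed by Dpt at -0.44 and Efemp1 at -0.41, each lower in the second series.

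The single knockouts were set against each other over both series. CASP8 IEC-KO had lower Pdpn and Lox than FADD IEC-KO and no matrix gene higher past the threshold (2 of 35 lower, against 3% of all genes, and 2.13% higher). The unadjusted p was under 0.05 for 5 higher and 4 lower genes, against 10.3% and 9.94% of all genes, and the median was -0.02. Pdpn, carried by lymphatic endothelium and by fibroblasts, read 7.26 to 7.63 in CASP8 IEC-KO and 7.57 to 8.67 in FADD IEC-KO of the first series. The difference over both series was -0.52 (SE 0.11, 95% interval -0.74 to -0.29, limma adjusted p = 0.0047), and -0.33 (limma adjusted p = 0.106) without replicates 22 and 23. Lox was lower by -0.73 (SE 0.21, limma adjusted p = 0.034). Its call ended without any of 10 single arrays (16, 18, 19, 92, 100, 108, 22, 23, 117 or 124, adjusted p 0.0545 to 0.112). Abi3bp at 0.54 ± 0.18 (SE, adjusted p = 0.0596) and Aspn at 0.60 ± 0.20 (adjusted p = 0.0628) were higher in CASP8 IEC-KO without passing. The count of 2 was 4 without replicate 17, 87, 24 or 89, 5 without 104, 21 or 95, and 0 without both 22 and 23. Beside these differences, 6 of 9 smooth muscle genes were higher and 3 of 4 neutrophil genes lower in CASP8 IEC-KO, and their part was not tested.

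The co-deletions in FADD IEC-KO asked which matrix genes differed once ZBP1, a nucleic acid sensor upstream of the kinase RIPK3, or MLKL, the protein that ruptures the membrane in necroptosis, was also missing. Of the 35 genes 14 rose with Zbp1 loss and 10 with Mlkl loss, among them 4 and 3 of 5 proteoglycans and 5 and 5 of 8 glycoproteins, whereas no fibrillar collagen passed. Both comparisons and that of FADD IEC-KO with Fadd fl/fl use the same 5 FADD IEC-KO arrays, so their values are set side by side and are not independent.

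The 14 genes that rose with Zbp1 loss, beside 0 that fell (limma, Benjamini-Hochberg), stand against 5.61% of all genes that rose and 5.14% that fell. At an unadjusted p under 0.05 the counts were 18 higher and 3 lower (13.4% and 11.7% of all genes), and the median was 0.36 against 0.01 over all genes. For 11 genes every co-deletion array lay above every FADD IEC-KO array, against 3.03% of all genes. With Mlkl loss 10 rose and 0 fell, against 2.91% and 2.93% of all genes. There, 16 were higher and 2 lower at an unadjusted p under 0.05 (10.6% and 10.2% of all genes), the median was 0.28, and 11 genes did not overlap, against 2.01% of all genes.

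Dpt read 10.56, 10.06, 10.18, 10.16 and 10.74 with Zbp1 loss and 10.18, 10.67, 10.03, 10.40 and 10.26 with Mlkl loss. All of these lay above the highest FADD IEC-KO array at 9.86, with rises of 1.11 (SE 0.20, limma adjusted p = 0.000869) and 1.07 (SE 0.20, limma adjusted p = 0.00234). Aspn read 8.89, 8.61, 8.87, 8.58 and 9.18 with Zbp1 loss and 8.87, 9.00, 8.63, 8.73 and 8.61 with Mlkl loss, above the 8.48 of the highest FADD IEC-KO array. It rose by 1.34 (SE 0.28, limma adjusted p = 0.00204) and 1.28 (SE 0.28, limma adjusted p = 0.00536). C1qtnf3 read 7.17, 6.16, 6.60, 6.69 and 7.19, and 6.49, 7.35, 6.55, 6.79 and 6.85, with rises of 1.46 (SE 0.31, limma adjusted p = 0.00204) and 1.50 (SE 0.31, limma adjusted p = 0.00338). Abi3bp rose by 1.31 (limma adjusted p = 0.00113) and 1.40 (limma adjusted p = 0.00117), and none of its arrays overlapped with FADD IEC-KO in either comparison.

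Lum showed a wider spread with Zbp1 loss. It read 8.48, 7.29, 7.91, 7.92 and 8.74 there, with replicate 2 inside the FADD IEC-KO range, and rose by 0.72 (limma adjusted p = 0.0356). With Mlkl loss it read 8.28, 8.74, 8.27, 8.48 and 7.99, clear of FADD IEC-KO (1.00, SE 0.23, limma adjusted p = 0.00691). Ogn rose by 1.04 in both (limma adjusted p = 0.00364 and 0.00573), Efemp1 by 0.86 and 0.77 (0.00468 and 0.0157) and Postn by 0.76 and 0.88 (0.0116 and 0.00691). Col6a1 rose by 0.41 with Zbp1 loss (limma adjusted p = 0.00845) and Fn1 by 0.50 with Mlkl loss (limma adjusted p = 0.022). Of the 5 fibrillar collagens none passed in either comparison, with medians of -0.09 and 0.15.

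Without FADD IEC-KO replicates 22 and 23, which leaves 3 arrays of that group, most of these calls ended. Then 2 of the 35 genes passed with Zbp1 loss (0.282% of all genes higher and 0.339% lower) and 0 with Mlkl loss (0% and 0.041%), while the differences of Dpt, C1qtnf3, Abi3bp and Aspn kept their sign. Dpt was then at 0.96 (limma adjusted p = 0.0402) and 0.93 (adjusted p = 0.115), C1qtnf3 at 1.34 (adjusted p = 0.0612) and 1.39 (adjusted p = 0.115), Abi3bp at 0.85 (adjusted p = 0.102) and 0.94 (adjusted p = 0.147), and Aspn at 0.80 (adjusted p = 0.167) and 0.74 (adjusted p = 0.323). Without replicate 22 alone Postn missed with Zbp1 loss (0.64, adjusted p = 0.0643). Efemp1 missed with Mlkl loss without replicate 22 or 12 (adjusted p 0.0693 and 0.0541). The count with Zbp1 loss was 8 without replicate 23 or 5 and 9 without replicate 1. On the compared arrays alone the counts were 5 and 4. All 9 smooth muscle genes rose in both comparisons (medians 0.81 and 0.91), with list means of 10.68 to 10.88 and 10.71 to 10.93. The neutrophil genes that passed were lower, 4 of 4 and 3 of 4. With Zbp1 loss 2 of 3 skeletal muscle genes rose as well, with a list mean of 6.38 to 7.14 against 5.87 to 6.13 in FADD IEC-KO. Replicate 5 of FADD IEC-KO Zbp1 -/- held the highest value of its group for 28 of the 35 genes. Replicate 12 of FADD IEC-KO Mlkl -/- did so for 23, and replicate 95 of FADD IEC-KO in the second series for 27. The share over all genes was not counted. Replicate 5 also had the highest skeletal muscle and adipocyte means of its group, at 7.14 and 6.93. The part of these cells in the rises was not tested.

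Set against Fadd fl/fl, both co-deletions had none of the 35 genes past the threshold (limma, against 0.498% of all genes higher and 0.575% lower with Zbp1 loss, and 0.0667% and 0.0923% with Mlkl loss). Unadjusted, 1 was higher and 5 lower at p under 0.05 with Zbp1 loss (5.93% and 6.74% of all genes), and 0 and 0 with Mlkl loss (3.97% and 5.41%). The medians were -0.10 and -0.05. With Zbp1 loss the largest differences were Col1a1 at -0.52 (95% interval -0.86 to -0.18, limma adjusted p = 0.114), Bgn at -0.43 (interval -0.70 to -0.17, adjusted p = 0.0927) and Lox at 0.41. One array bore on this count, which was 2 without replicate 5. With Mlkl loss they were Thbs1 at 0.40 (interval -0.07 to 0.87), Fap at -0.34 and Sparc at -0.27, with adjusted p-values from 0.622 to 0.668.

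Epithelial loss of RIPK3 in FADD IEC-KO gave no gene past the threshold in the second series, against 0.159% of all genes higher and 0.595% lower (limma). Without adjustment 6 were higher and 3 lower at p under 0.05 (7.34% and 7.22% of all genes), and the median was 0.06. The largest differences were Aspn at 0.68 (95% interval 0.12 to 1.25, limma adjusted p = 0.243), Ogn at 0.53 (interval 0.06 to 1.00, adjusted p = 0.275) and Col14a1 at 0.48 (interval 0.18 to 0.78, adjusted p = 0.101). Without FADD IEC-KO replicate 95 the count was 1. Pdgfrb, the receptor of pericytes and fibroblasts, read 7.44, 7.52, 7.52, 7.57 and 7.38 in the co-deletion, below every FADD IEC-KO array (7.73 to 8.07) and every Casp8 fl/fl array (7.71 to 7.91), with adjusted p-values of 0.157 and 0.362. It was singled out after its values were seen. A gap of that kind was found for 1.94% of all genes in the first of these comparisons and 0.831% in the second. Against Casp8 fl/fl no gene passed (0.0462% of all genes higher and 0.0308% lower), with 0 higher and 7 lower at an unadjusted p under 0.05 (6.12% and 4.63% of all genes) and a median of -0.20. Sparc at -0.41, Col3a1 at -0.37 and Lum at -0.37 were the largest differences, with adjusted p-values from 0.379 to 0.604.

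Loss of Mlkl in CASP8 IEC-KO also gave no gene past the threshold (limma, against 0.128% of all genes higher and 0.292% lower). Unadjusted p-values were under 0.05 for 10 higher and 0 lower genes (6.67% and 6.44% of all genes), 32 of the 35 differences were above 0, against 53.7% of all genes, and the median was 0.26. C1qtnf3 stood at 0.63 (95% interval 0.01 to 1.24, limma adjusted p = 0.369), Thbs2 at 0.53 (interval 0.15 to 0.91, adjusted p = 0.196) and Efemp1 at 0.48 (interval 0.07 to 0.88, adjusted p = 0.288). Against Fadd fl/fl no gene of CASP8 IEC-KO Mlkl -/- passed (0.0154% of all genes higher and 0.0308% lower), with 0 higher and 3 lower at an unadjusted p under 0.05 (3.75% and 4.44% of all genes) and a median of -0.02. The largest were Lox at 0.50 (-0.07 with a circadian clock score as covariate), Col14a1 at -0.33 and Bgn at -0.31. The effect of Mlkl loss in CASP8 IEC-KO minus that in FADD IEC-KO passed for no gene (against 0.0103% of all genes higher and 0.00513% lower), with 2 higher and 5 lower at an unadjusted p under 0.05 (5.61% and 5.38%). Abi3bp was at -1.16 (interval -1.87 to -0.44, adjusted p = 0.235), Lox at 1.17 (interval 0.31 to 2.03, adjusted p = 0.3) and Aspn at -1.02 (interval -1.82 to -0.22, adjusted p = 0.327). Without FADD IEC-KO replicate 21 the count was 1.

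Averaged over the 35 genes, the groups ran from Fadd fl/fl at 8.53 ± 0.11 (SD), CASP8 IEC-KO Mlkl -/- at 8.50 ± 0.12 and FADD IEC-KO Mlkl -/- at 8.48 ± 0.11 down to FADD IEC-KO of the first series at 8.10 ± 0.22 and CASP8 IEC-KO of the second at 8.05 ± 0.22. Between them lay Casp8 fl/fl at 8.44 ± 0.08, FADD IEC-KO Zbp1 -/- at 8.41 ± 0.20, CASP8 IEC-KO of the first series at 8.25 ± 0.14, FADD IEC-KO RIPK3 IEC-KO at 8.23 ± 0.10 and FADD IEC-KO of the second series at 8.16 ± 0.33. Neighbours in this order differed by less than the larger of their SDs. In the first series every FADD IEC-KO array (7.72 to 8.28) and every CASP8 IEC-KO array (8.08 to 8.41) lay below every Fadd fl/fl array (8.44 to 8.71). In the second, CASP8 IEC-KO ran from 7.81 to 8.33 and met the lower end of Casp8 fl/fl (8.33 to 8.51). FADD IEC-KO of the second series ran from 7.87 to 8.65 and overlapped with all groups. The lowest group mean of a gene was in FADD IEC-KO of the first series for 11 genes and in CASP8 IEC-KO of the second for 9. It was in FADD IEC-KO RIPK3 IEC-KO for 7 and in FADD IEC-KO of the second series for 4. The highest was in Fadd fl/fl for 13 genes and in CASP8 IEC-KO Mlkl -/- for 11. Shares over all genes were not counted for these.

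The roles differed in how far they separated some of the groups from their floxed group. The mean of the 5 proteoglycans was 9.82 ± 0.14 (SD) for Fadd fl/fl and 8.93 ± 0.35 for FADD IEC-KO of the first series, and 9.76 ± 0.06 for Casp8 fl/fl and 9.10 ± 0.37 for CASP8 IEC-KO of the second. The mean of the 8 glycoproteins was 8.88 ± 0.13 and 8.13 ± 0.27, and 8.81 ± 0.12 and 8.26 ± 0.32, in the same order. The mean of the 5 fibrillar collagens was 8.45 ± 0.10 and 8.24 ± 0.41, and 8.33 ± 0.18 and 8.01 ± 0.27, with overlapping arrays in both series. The mean of Lox and Loxl1 was 6.57 ± 0.20 and 6.88 ± 0.76, and 6.48 ± 0.16 and 6.27 ± 0.18. The spread within a group also differed: the median SD of a gene was 0.40 and 0.38 in both FADD IEC-KO groups, 0.29 in CASP8 IEC-KO of the second series and 0.15 to 0.23 in the other 7. Since the fit shares 1 estimate of spread per gene over the 10 groups, SEs and p-values of the FADD IEC-KO comparisons can be too small.

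**Figure D5:**
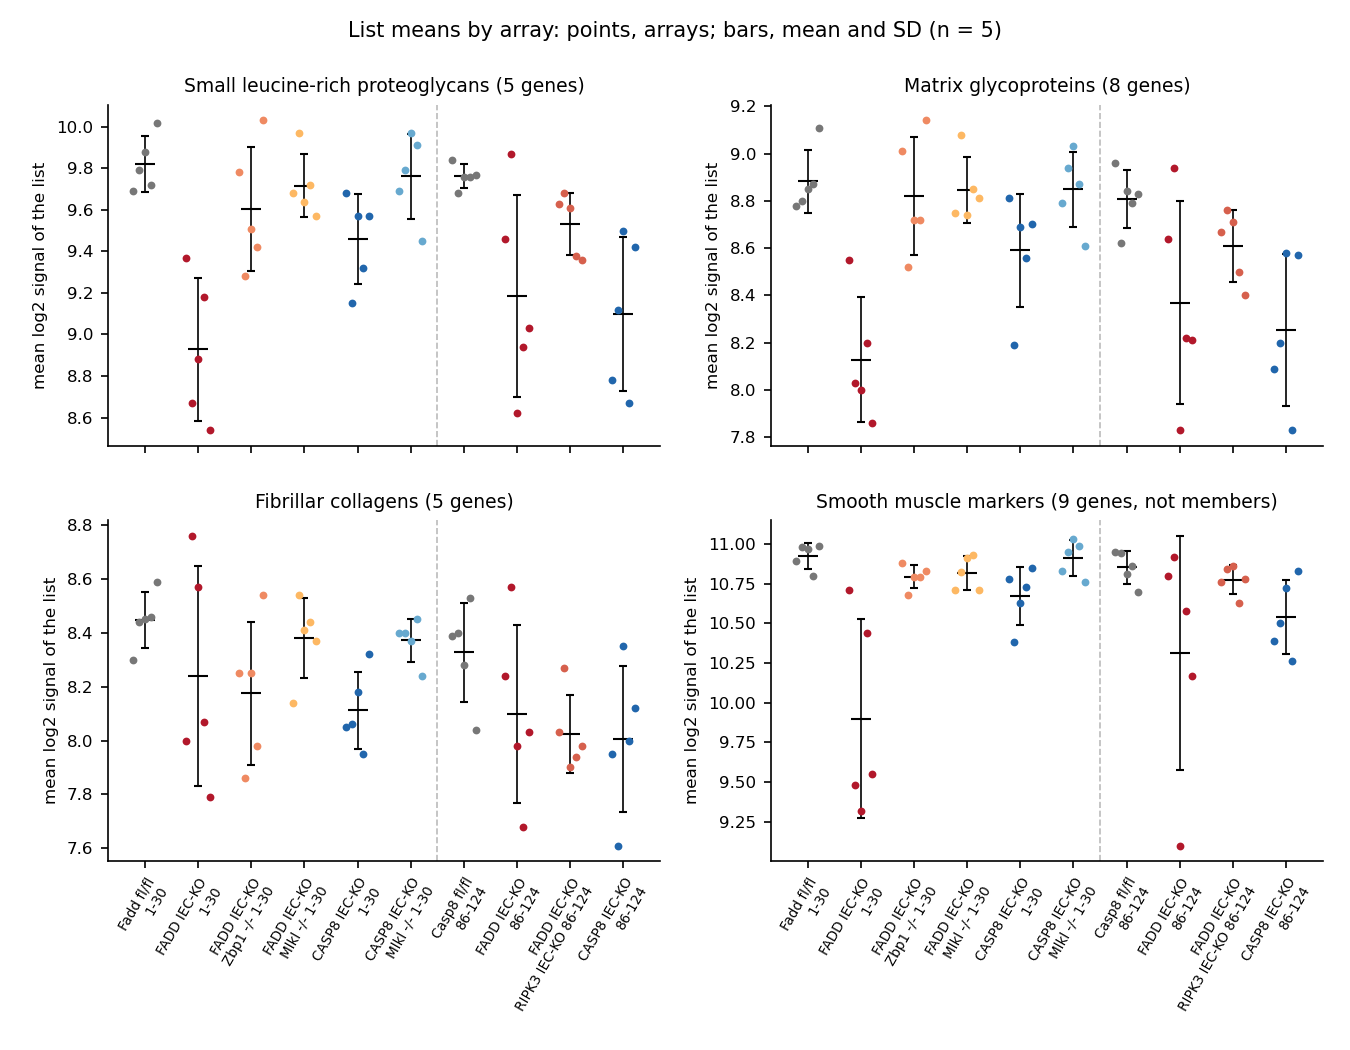
Mean log2 signal of 5 small leucine-rich proteoglycans, 8 matrix glycoproteins, 5 fibrillar collagens and 9 smooth muscle genes on every array (points) in the 10 groups, with the mean and SD (n = 5). The proteoglycan mean is 9.82 in Fadd fl/fl and 8.93 in FADD IEC-KO of the first series, the smooth muscle mean 10.93 and 9.90, and the fibrillar collagen mean 8.45 and 8.24 with overlapping arrays.

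The genes did not vary as a single unit within groups. After each group mean was taken away, the residuals of Aspn, Ogn, Postn and Abi3bp correlated with the mean of the smooth muscle list at Pearson r of 0.89, 0.86, 0.82 and 0.80 over the 50 arrays. Those of Lum and Dcn did so at 0.45 and 0.34, and correlated at 0.84 and 0.79 with the rest of the 35 genes. Col1a1, Col4a1, Lox and Pdpn had negative values with smooth muscle, at -0.25, -0.32, -0.32 and -0.49. The mean of the 35 genes had r = 0.51 with the smooth muscle list and -0.20 with the neutrophil list. The smooth muscle mean had an SD of 0.63 and 0.73 in the FADD IEC-KO groups and 0.07 to 0.23 in the other groups. Correlations with that list therefore rest mostly on FADD IEC-KO arrays. All of these correlations are descriptions of arrays that share tissue and processing. Among genes outside the list, those most like its mean were the serine protease gene Htra1 and the intermediate filament gene Vim at r = 0.88 each, then Antxr1 at 0.85 and Sdc3, Hspg2 and Lamc1 at 0.84. Lgals1, Mmp2, Nid1 and Timp2 followed at 0.83.

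Other genes of matrix making and sensing were read from lists chosen by function. Their counts stand beside 10.1% of all genes lower and 8.59% higher in the first of these comparisons. In FADD IEC-KO of the first series against Fadd fl/fl, 6 of 12 elastic fibre genes fell and 0 rose (median -0.32). Mfap4 was at -0.71 ± 0.19 (SE), Ltbp4, which stores latent TGF-beta, at -0.56 ± 0.15 and Mfap5 at -0.62 ± 0.18. Of 17 matrix receptors 6 fell and 2 rose. The collagen receptor gene Ddr2 fell by 0.75 (limma adjusted p = 0.000224), the integrin gene Itga9 by 0.83 (adjusted p = 0.000281) and the syndecan gene Sdc2 by 0.54 (adjusted p = 0.00235). Of 13 basement membrane genes 5 fell and 1 rose, with Lamb2 at -0.55 and Lama2 at -0.55 and with Lama1 at 0.78 (limma adjusted p = 0.00204).

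Of 18 genes for enzymes and chaperones of collagen synthesis 4 fell and 1 rose in that comparison, against the same 10.1% and 8.59% of all genes. The prolyl hydroxylase gene P3h2 fell by 1.01 (limma adjusted p = 0.000828) and the collagen chaperone gene Serpinh1 by 0.55 (adjusted p = 0.018), while P4hb, a subunit of prolyl hydroxylase that is also a general protein-folding enzyme, rose by 0.51 (adjusted p = 0.000818). Of 14 genes of the TGF-beta pathway 4 fell and 1 rose (median -0.02), with Smad2 at -0.36, the ligand gene Tgfb3 at -0.69 and the co-receptor gene Tgfbr3 at -0.56. Among 13 other collagens 1 fell (Col4a6, -0.51) and 1 rose (Col18a1, 0.67). Of 10 genes for growth factors tied to fibroblasts and for receptors, 2 rose and 1 fell. These were Hgf, a fibroblast product that acts on epithelium, at 0.80 (limma adjusted p = 0.004), Fgf10 at 0.48 and Pdgfd at -0.86.

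In the second series fewer of these genes passed between FADD IEC-KO and Casp8 fl/fl, where 4.25% of all genes fell and 6.8% rose. Ddr2 (-0.46), Itga9 (-0.47) and Smad2 (-0.23) were lower and P4hb (0.44), Col18a1 (0.70) and Hgf (0.63) higher, each with limma adjusted p under 0.05, and the receptor gene Cd44 rose by 0.63 (adjusted p = 0.00846). The lysyl hydroxylase gene Plod2 fell by 0.54, Lama3 by 0.46 and Nid1 by 0.39, and none of 12 elastic fibre genes passed (median -0.10). In CASP8 IEC-KO of the second series Col4a5 (-0.61, adjusted p = 0.0237) and Ddr2 (-0.51, adjusted p = 0.0339) were the genes of these lists that passed, and in the first series none did. Between the single knockouts, P4hb (-0.35), Col18a1 (-0.60) and Hgf (-0.79, adjusted p = 0.000594) were lower in CASP8 IEC-KO and Lama3 (0.54), P3h2 (0.52), Itga9 (0.36) and Smad2 (0.25) higher.

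With Zbp1 or Mlkl loss Ddr2 rose by 0.58 and 0.64 and P3h2 by 0.68 and 0.86 against FADD IEC-KO, and P4hb fell by 0.47 and 0.50 (limma, Benjamini-Hochberg). Of 17 matrix receptors 6 rose and 3 fell with Zbp1 loss, the integrin gene Itgb6, an epithelial activator of TGF-beta, among those that fell (-0.63, adjusted p = 0.00555). With Mlkl loss 4 rose and 1 fell. Over all genes 5.61% rose and 5.14% fell with Zbp1 loss, and 2.91% and 2.93% with Mlkl loss. The elastic fibre gene Fbn2 rose by 0.53 and 0.67. These comparisons use the FADD IEC-KO arrays of the first series, whose values for the same genes are given above.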

How the data were processed

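Colon RNA (100 ng of total RNA an array, per the labels' protocols) was measured on 50 Affymetrix whole-transcript arrays with biotin label. Per the submitters' processing notes, the programs used were Affymetrix Expression Console with Transcriptome Analysis Console; their versions and the way arrays were normalized are not stated in the sources at hand. For each probe set the authors deposited a log2 signal, with array medians of 6.41 to 6.47 and a largest SD of any quantile between arrays of 0.10. The number of arrays limits the precision. No detection calls were used, so no gene was called absent.

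Of 22142 probe sets 19527 carried 1 symbol and 2615 none. For symbols with several, the probe set with the highest mean was kept (33 dropped), leaving 19494 genes. A model with 1 mean for each of the 10 groups was fitted in limma 3.58.1 (R 4.3.3; 40 residual degrees of freedom), and p-values were adjusted over all genes (Benjamini-Hochberg, threshold 0.05). Tests stayed within a number series, apart from the contrast of the single knockouts, which averages both series, and the differences between series. The procedure was tested on simulated data. Tables were handled with Python 3.11.15 and pandas 2.3.3. Promoters, gene order and names came from RefSeq on GRCm38.p6.

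The members and lists were chosen with earlier results of these data known. Named members are up to 8 each way with the smallest adjusted p among those that passed, or the 3 with the largest difference where none passed. Values on each array are for members named most often. Other lists give up to 3 genes a comparison, and the 10 genes most like the list mean are named. Members named beyond this rule complete a role or show an array that stood apart, and were chosen after their values were seen; the same holds for genes of other lists carried from 1 comparison to another. Of 155 genes written in these lists 142 were measured. Alternatives were quantile normalization, a fit restricted to the arrays compared, trend and robust moderation, leaving out the 40% of genes with the lowest means, pooled series with a series term, covariates for sex-linked genes and for a circadian clock score, removal of FADD IEC-KO replicates 22 and 23, a difference of at least 0.5, the mean of all probe sets, and each array left out in turn.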

Additional observations from a re-analysis of the deposited data

Results flagged for a closer look

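In each group of 5 arrays the highest and lowest array were set against the others for 24 series of values (the list mean, the role means and the genes named most often), which made 240 sets of 5. In 12 of these an array stood apart from the other 4 by more than Dixon's 95% limit allows, and chance alone sets apart about 1 in 20. The part of any cause was not tested.

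In FADD IEC-KO of the first series, C1qtnf3 was high in replicate 21 (6.09, the others 4.96 to 5.26) and Fn1 low in replicate 25 (9.97, the others 10.55 to 10.76). In Fadd fl/fl, replicate 30 was high for the matrix glycoprotein mean (9.11, the others 8.78 to 8.87) and for Pdpn (8.16, the others 7.58 to 7.69), and replicate 29 low for the matricellular mean (9.22, the others 9.48 to 9.55). In Casp8 fl/fl, replicate 119 was low for Col3a1 (10.07, the others 10.49 to 10.58) and replicate 105 high for Pdpn (7.87, the others 7.51 to 7.59).

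Among co-deletions, FADD IEC-KO Mlkl -/- replicate 15 was low for Fap (3.41, the others 4.34 to 4.54) and for the mean of the surface proteins (6.36, the others 6.62 to 6.72), which includes Fap. CASP8 IEC-KO Mlkl -/- replicate 10 was low for Postn (10.82, the others 11.08 to 11.14) and replicate 9 high for Col3a1 (10.55, the others 10.35 to 10.39). FADD IEC-KO RIPK3 IEC-KO replicate 93 was high for the mean of Lox and Loxl1 (6.79, the others 6.27 to 6.35).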

How the results depend on the processing

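None of the 39 named calls changed sign under the alternatives run. Of the 30 named differences that had not passed, 6 passed under at least 1 alternative, and Lox between CASP8 IEC-KO Mlkl -/- and Fadd fl/fl turned from 0.50 to -0.07 with the clock score. Of the 39 calls 7 passed under every alternative, 22 missed on the compared arrays alone and 21 without FADD IEC-KO replicates 22 and 23. On the compared arrays alone, the genes that passed were 1 in place of 9 for FADD IEC-KO of the second series, 0 in place of 4 for CASP8 IEC-KO there, 0 in place of 2 between the single knockouts, and 5 and 4 in place of 14 and 10 for Zbp1 and Mlkl loss in FADD IEC-KO. Without replicates 22 and 23 these last 3 counts were 0, 2 and 0, and 1 gene passed between FADD IEC-KO Zbp1 -/- and Fadd fl/fl. With the dimmest genes left out, 7 passed for CASP8 IEC-KO of the second series and 4 between the single knockouts. With both series pooled, 15 passed for FADD IEC-KO of the second series, 7 for Zbp1 loss, 2 for RIPK3 loss and 1 for Mlkl loss in CASP8 IEC-KO. With the clock score, 1 passed between the single knockouts and 3 between FADD IEC-KO Zbp1 -/- and Fadd fl/fl. The cause of these changes was not tested. Some of these fits used fewer arrays, and the fit on the compared arrays alone also took its spread from those groups only. The RIPK3 group's list mean of 8.23 was 8.13 as a median over members.

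With each array left out in turn the counts ran from 14 to 20 for FADD IEC-KO of the first series, 2 to 13 for the second, 0 to 8 for CASP8 IEC-KO of the second series, 1 to 5 between the single knockouts, 8 to 16 for Zbp1 loss, 7 to 14 for Mlkl loss, 0 to 1 for RIPK3 loss and for the difference in Mlkl effects, and 0 to 2 for FADD IEC-KO Zbp1 -/- against Fadd fl/fl. No paired analysis was possible because every title number occurs once, so the groups share no replicate numbers. Dim genes were read without detection calls, which limits what a low signal such as that of Fap can show.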
